A study of Mus musculus with 12 samples.

Results

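The 10 genes described here are immediate early genes of the adult mouse paraventricular nucleus, namely Fos, Fosb, Junb, Egr1, Egr2, Arc, Nr4a1, Npas4, Dusp1 and Homer1. They were taken by symbol from a table of 23256 genes, each gene represented by its transcript row of highest mean, and the 3 transcript rows of Homer1 were also read one by one. The study asked whether microRNAs introduced at the zygote stage leave a trace in the adult hypothalamus. Zygotes of the hybrid background C57/Bl6:129S6/SvEvTac received either 9 miRIDIAN mimics in DPBS (the related miR-30a and miR-30c, besides miR-29c, miR-32, miR-193-5p and miR-204, and also miR-375, miR-532-3p and miR-698, at 0.11 ng/uL each and 1 ng/uL in sum) or DPBS alone, and all grew up from CD1 surrogate dams. The miR group (replicates 1 to 6) and the PBS group (replicates 7 to 12) each held 6 male mice of 18 to 20 weeks, which were anesthetized with isoflurane before the brain was collected. Tissue was punched with a 1.0 mm needle from 2 slices of 300 µm per animal, so a library can also hold tissue next to the nucleus. The sources used here do not give the litter, the hour of collection or the handling of each animal before it.

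Levels are given as RPKM, read numbers scaled for transcript length and library size, so levels of different genes can be compared. The libraries held an estimated 22.8 to 45.1 M reads in miR and 27.6 to 38.1 M in PBS. Genes listed as neuropeptides and factors of the nucleus were expressed in each library. The 8 genes of that list, among them Oxt, Avp, Crh, Sim1 and Otp, summed to 2352 to 5770 RPKM in miR and to 2608 to 6204 RPKM in PBS. Oxt (1295 to 3983 RPKM over all libraries) and Avp (372 to 1564 RPKM) made up most of these sums. Otp measured 14.1 to 38.0 RPKM and Sim1 5.08 to 11.3 RPKM over all libraries. One division of the libraries precedes the results. Meg3, a noncoding RNA retained in the nucleus, measured 49.9 to 68.1 RPKM in miR, against 50.6 and 58.0 RPKM in PBS replicates 7 and 11, whereas PBS replicates 8, 9, 10 and 12 held 158, 316, 190 and 245 RPKM. The genes of this account divided the libraries along another line, though within PBS that line differed only in replicate 9. In a tissue punch, fewer cells that express a gene and less RNA of it per cell cannot be told apart.

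Immediate early genes are transcribed within minutes of a stimulus to the cell, from factors already present in it and without new protein synthesis. Calcium and growth factor signals reach them mainly through CREB, which binds the cyclic AMP response element (CRE), and through serum response factor, which binds the CArG box. In the paraventricular nucleus, Fos is the customary marker of neurons recently activated by stress, osmotic load or feeding signals. Fos, Fosb and Junb encode subunits of the AP-1 transcription factor, Egr1 and Egr2 zinc finger factors, Nr4a1 an orphan nuclear receptor and Npas4 a neuronal factor induced by calcium entry. Arc encodes a postsynaptic protein of receptor trafficking, Dusp1 a phosphatase that switches off MAP kinases, and Homer1 a scaffold protein of the postsynaptic density.

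The 250 bases before the transcription start are shown for 4 genes that rose and fell together across the libraries and for Homer1, which did not rise with them. They come from RefSeq on build GRCm38.p6 and run 5′ to 3′ along the gene's strand. Capitals mark the CRE core TGACG on either strand. Entries were found for 8 of the 10 genes.
Fos (chr12:85473640-85473889, plus strand): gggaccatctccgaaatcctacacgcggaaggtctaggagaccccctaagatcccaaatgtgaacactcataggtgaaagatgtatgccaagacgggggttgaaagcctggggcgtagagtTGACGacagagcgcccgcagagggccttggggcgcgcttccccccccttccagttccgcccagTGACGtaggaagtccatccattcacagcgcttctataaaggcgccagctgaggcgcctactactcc
Npas4 (chr19:4989972-4990221, minus strand): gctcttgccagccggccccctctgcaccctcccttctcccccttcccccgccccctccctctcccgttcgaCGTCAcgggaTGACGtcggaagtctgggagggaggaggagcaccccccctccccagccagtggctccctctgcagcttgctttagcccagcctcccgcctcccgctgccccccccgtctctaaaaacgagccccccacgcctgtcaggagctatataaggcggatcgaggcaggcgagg
Dusp1 (chr17:26508473-26508722, minus strand): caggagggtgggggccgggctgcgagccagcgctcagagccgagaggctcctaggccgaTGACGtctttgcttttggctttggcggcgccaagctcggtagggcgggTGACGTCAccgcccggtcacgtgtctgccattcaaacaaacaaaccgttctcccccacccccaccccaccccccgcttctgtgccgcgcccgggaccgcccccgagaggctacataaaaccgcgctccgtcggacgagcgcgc
Nr4a1 (chr15:101266596-101266845, plus strand): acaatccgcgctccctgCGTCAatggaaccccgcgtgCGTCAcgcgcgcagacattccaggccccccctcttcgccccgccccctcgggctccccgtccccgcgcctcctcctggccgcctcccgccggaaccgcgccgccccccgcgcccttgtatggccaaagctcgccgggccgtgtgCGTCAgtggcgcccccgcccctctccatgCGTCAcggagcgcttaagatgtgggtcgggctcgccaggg
Homer1 (chr13:93303507-93303756, plus strand): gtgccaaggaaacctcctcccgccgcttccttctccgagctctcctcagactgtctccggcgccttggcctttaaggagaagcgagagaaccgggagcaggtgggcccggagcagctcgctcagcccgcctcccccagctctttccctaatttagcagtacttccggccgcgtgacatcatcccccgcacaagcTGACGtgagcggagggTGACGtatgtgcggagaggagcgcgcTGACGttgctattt
At least one TGACG core stood in the windows of all 8 genes with an entry, Homer1 included, against 17.8% of all 32851 promoter windows (Egr2 has several windows and Homer1 a pair, and one window was enough). The core began at position -66 before the start of Fos, at -60 in Fosb, at -106 in Junb, at -69 and -40 in Nr4a1 and at -56 in Homer1. The full palindrome TGACGTCA, which contains the core on both strands, was found among them in Dusp1 at -143, against 1.55% of all windows. A CArG box was found in Egr2, against 1.47% of all windows, and GCGNGGGCG, the letters bound by EGR proteins, in 2 of the 8 genes, against 4.70%. The AP-1 letters TGANTCA were found in 0 of the 8 genes, against 6.75% of all windows. These are matches of letters and not tested sites. Letters farther upstream than these windows were not searched, and Arc and Egr1 had no entry, so a missing match does not show that a gene lacks the site.

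Fos (chromosome 12, 86814851 to 86818219 in mm9, the build of all gene positions given here, plus strand) was the most abundant of the 10 genes on average and ranged 26.2-fold over the animals. In miR it measured 3.24, 57.3, 9.12, 5.51, 6.56 and 46.5 RPKM in replicates 1 to 6. In PBS it measured 6.41, 57.3, 2.19, 19.6, 6.55 and 32.5 RPKM in replicates 7 to 12. The values fell into 2 sets in both groups: miR replicates 2 and 6 and PBS replicates 8, 10 and 12 lay at 19.6 RPKM or above, and the other 7 libraries at 9.12 RPKM or below. These 5 libraries were thus 2 of 6 in miR and 3 of 6 in PBS. The division crossed that by Meg3, since PBS replicate 9, with the highest Meg3, had the lowest Fos.

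**Figure D1:**
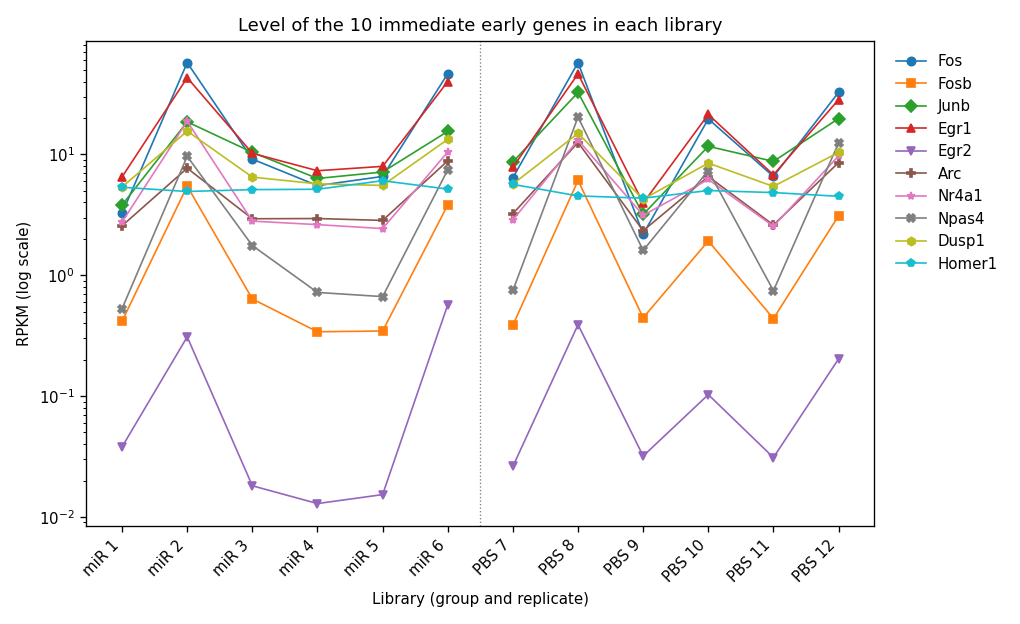
Level of each gene in RPKM (log scale) in the 12 libraries, miR replicates 1 to 6 on the left and PBS replicates 7 to 12 on the right; each line is 1 gene. All genes but Homer1 peak in miR replicates 2 and 6 and in PBS replicates 8, 10 and 12.

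The same 5 libraries were the 5 highest for 8 of the other 9 genes, all but Homer1. The share of all genes with these 5 libraries on top was not computed. For 8 of the 10 genes the widest step between neighbouring values, on a log scale, lay between these 5 libraries and the other 7, while in Junb it lay lower and in Homer1 it set a single library apart. Within the 5, PBS replicate 10 was the lowest for 9 of the 10 genes, again all but Homer1, and PBS replicate 8 was the highest for 6. Within the 7, PBS replicate 9 was the lowest for 6 of the 10.

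Of the AP-1 subunits, Fosb (chromosome 7, 19888045 to 19895394) measured 0.417, 5.46, 0.636, 0.340, 0.345 and 3.81 RPKM in miR replicates 1 to 6 and 0.386, 6.08, 0.444, 1.92, 0.437 and 3.10 RPKM in PBS replicates 7 to 12. It stayed under 1 RPKM outside the 5 libraries, which lay at least 3.02-fold above all others. Junb (chromosome 8, 87500808 to 87502647) measured 3.80, 18.6, 10.4, 6.31, 7.14 and 15.5 RPKM in miR, against 8.66, 32.5, 3.18, 11.6, 8.74 and 19.8 RPKM in PBS, in the same order of replicates. Junb was graded rather than divided: the lowest of the 5 libraries, PBS replicate 10, stood only 1.12-fold above the highest of the 7, miR replicate 3.

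Of the zinc finger factors, Egr1 (chromosome 18, 35020861 to 35024610) measured 6.51, 43.0, 10.2, 7.31, 7.95 and 39.98 RPKM in miR, against 7.83, 46.3, 3.95, 21.4, 6.76 and 28.3 RPKM in PBS. It had the same 5 libraries on top as Fos, with the lowest value of both genes in PBS replicate 9 and the highest in PBS replicate 8. Egr2 (chromosome 10, 67000617 to 67004936) was the rarest gene, at 0.0381, 0.309, 0.0181, 0.0129, 0.0153 and 0.570 RPKM in miR, against 0.0262, 0.390, 0.0319, 0.103, 0.0310 and 0.203 RPKM in PBS. These levels amount to about 1.1 to 38.9 reads per library, so its 44.2-fold range rests on very few reads at the low end. It nevertheless put the same 5 libraries on top.

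Npas4 (chromosome 19, 4984355 to 4989971) had the widest spread of any tested gene, those averaging 1 RPKM or more. It reached that level only through the libraries where it was high, so this place is not separate evidence. It measured 0.529, 9.62, 1.76, 0.720, 0.665 and 7.44 RPKM in miR, against 0.748, 20.3, 1.60, 7.34, 0.745 and 12.4 RPKM in PBS. The 5 libraries lay at least 4.18-fold above the other 7, the widest separation of the 10 genes, and PBS replicate 9 was not the lowest here but close to miR replicate 3. Nr4a1 (chromosome 15, 101097277 to 101105225) measured 2.75, 18.8, 2.80, 2.62, 2.43 and 10.5 RPKM in miR, against 2.87, 13.1, 3.13, 6.20, 2.54 and 9.69 RPKM in PBS. Its 7 lower libraries were almost level, between 2.43 and 3.13 RPKM.

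Of the effector genes, Arc (chromosome 15, 74499513 to 74503000) measured 2.56, 7.68, 2.93, 2.94, 2.84 and 8.83 RPKM in miR, against 3.23, 12.5, 2.33, 6.55, 2.60 and 8.53 RPKM in PBS. Dusp1 (chromosome 17, 26642536 to 26645417) measured 5.37, 15.6, 6.48, 5.70, 5.53 and 13.3 RPKM in miR, against 5.67, 14.9, 4.25, 8.45, 5.42 and 10.4 RPKM in PBS. Both were well above 0 in all libraries and changed over a smaller range than the factors.

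The order of range, as highest over lowest level, was 44.2-fold in Egr2, 38.4-fold in Npas4, 26.2-fold in Fos, 17.9-fold in Fosb, 11.7-fold in Egr1, 10.2-fold in Junb, 7.72-fold in Nr4a1, 5.36-fold in Arc, 3.66-fold in Dusp1 and 1.39-fold in Homer1. Ranked by the SD of log2(RPKM + 0.5) among the 13273 genes averaging 1 RPKM or more, Npas4 stood in place 1 and Fos in place 3, Egr1 and Fosb in places 12 and 13, Nr4a1, Junb and Arc in places 30, 50 and 89, Dusp1 in place 159 and Homer1 in place 7410. Egr2 lay below that level. Fosb and Npas4 reached it only through the libraries where they were high, so their places are not separate evidence. The SD was 1.61 in Npas4, 1.57 in Fos and 0.13 in Homer1, and the median over tested genes was also 0.13. In mean level the order was Fos at 21.1 RPKM, Egr1 at 19.1, Junb at 12.2, Dusp1 at 8.42, Nr4a1 at 6.45, Npas4 at 5.32, Arc at 5.30, Homer1 at 5.05, Fosb at 1.95 and Egr2 at 0.146 RPKM. The ranges of all neighbours in that order overlapped. Fosb exceeded Egr2 in 12 of 12 libraries and Dusp1 exceeded Nr4a1 in 11. Fos exceeded Egr1 in 4 of 12 and Npas4 exceeded Arc in 4 of 12, all of them libraries with high Fos. In every library with low Fos, Egr1 lay above Fos and Arc above Npas4, so these neighbours have no order that holds in all libraries.

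The covariation was tested across all genes with limma, as the slope of a gene's log2(RPKM + 0.5) on that of Fos, with a term for the group. Of 13272 genes other than Fos, 0.166% passed an adjusted p of 0.05 in either direction, and 11 genes, or 0.0829%, rose with Fos. Of the 8 genes of the list in this test 7 rose, and 7 of these 11 were immediate early genes of the list. The slope was 0.92 ± 0.10 (SE) in Npas4, with adjusted p = 0.000675 in limma. Egr1 had a slope of 0.76 ± 0.03 (limma adjusted p = 5.63e-09), and Fosb 0.73 ± 0.06 with 5.26e-05. Nr4a1 had 0.59 ± 0.07 (adjusted p = 0.000734 in limma), Junb 0.56 ± 0.05 (5.26e-05) and Arc 0.48 ± 0.04 (2.31e-05). Dusp1 had the shallowest slope of the 7, 0.39 ± 0.02 (limma adjusted p = 6.51e-07). Homer1 had a slope of -0.02 ± 0.02 and an adjusted p of 0.777. Fosb, at under 1 RPKM in 7 libraries, and Npas4, at under 1 RPKM in 5, reached the level for testing only through the libraries where they were high, so their calls are not separate evidence. Without that level Egr2 had a slope of 0.21 ± 0.03 (limma adjusted p = 0.0538), where 0.0488% of genes rose. Without PBS replicate 8 and miR replicate 2, the libraries farthest from the median Fos, 6 genes rose and none fell in limma, at an unadjusted p under 0.05 in 1024 genes, 5 of the 6 being genes of the list, with Nr4a1 (adjusted p = 0.0534) and Npas4 (0.0566) just outside.

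**Figure D2:**
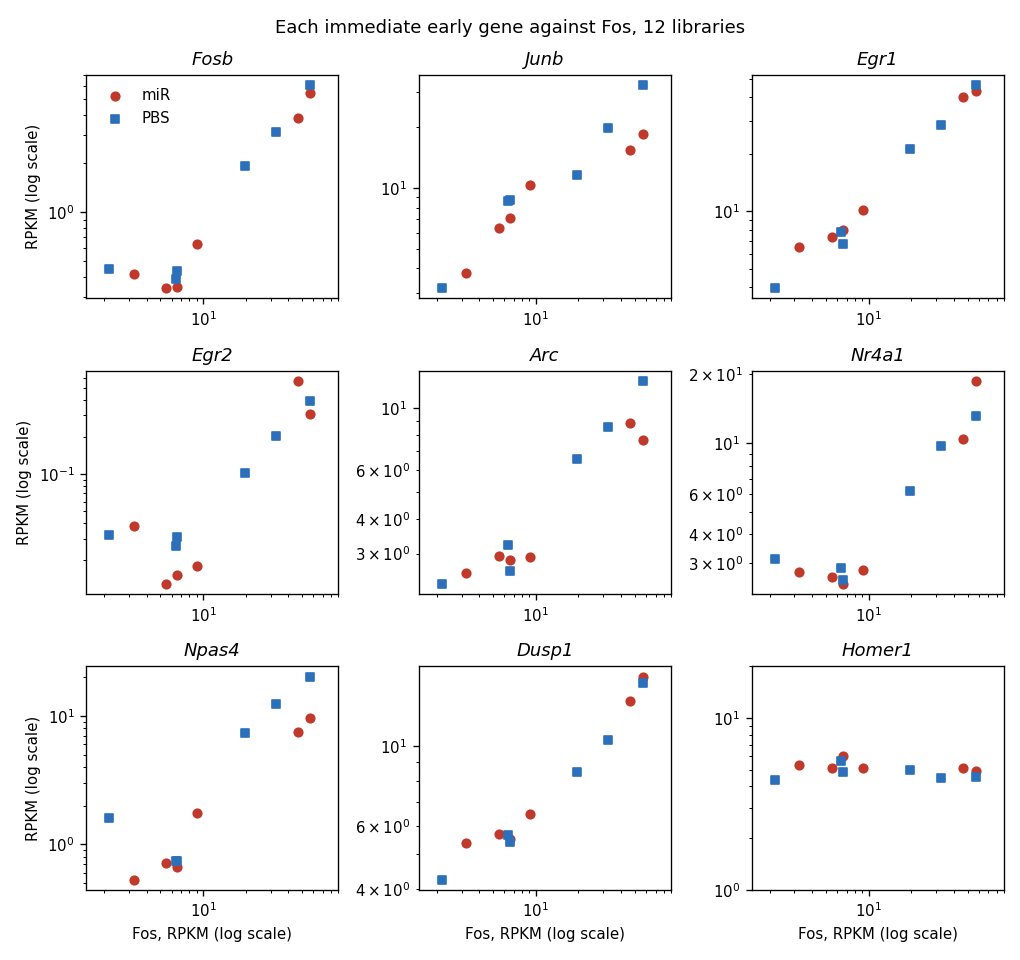
Each panel plots 1 gene against Fos, both as RPKM on log scales, over the 12 libraries (circles miR, squares PBS). Points of both groups lie along one path in Egr1 and Dusp1, while Homer1 stays between 4.34 and 6.05 RPKM over the whole range of Fos.

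The pairs were also compared directly. All 36 pairs among the 9 genes without Homer1 passed a 2-sided permutation test over the 12 libraries (100000 permutations, adjusted over 45 pairs), by Pearson's r and by Spearman's rho, and all were positive. None of the 9 pairs with Homer1 passed. Without PBS replicate 9, however, 4 pairs with Homer1 passed by Pearson's r and 3 by Spearman's rho, all negative: Homer1 with Npas4, Junb and Fosb by both (permutation p adjusted over 45 pairs 0.015, 0.0254 and 0.0361 by r) and with Arc by r alone (0.0426). By rho, 2 pairs with Homer1 passed without miR replicate 6 and 1 without PBS replicate 11. Because most genes fell into 2 sets of libraries, pooled coefficients of the pairs would span both and are not given. For the same reason the 36 pairs are not 36 separate results, and those with Egr2 rest on few reads. The share of pairs that pass among all genes was not computed. Among the 7 libraries with low Fos, the 36 pairs had a median r of 0.18 and 20 were positive. By r, Fos, Junb, Egr1 and Dusp1 still moved together there. Fos and Junb had r = 0.98 and rho = 0.89 (exact permutation p = 0.00079 and 0.0123, n = 7, adjusted over 45 pairs 0.0327 and 0.268). For Egr1 and Dusp1 r was 0.98 and rho 0.86 (exact permutation p = 0.00218 and 0.0238, n = 7, adjusted 0.0327 and 0.268). All 6 pairs of these 4 genes passed by r, and no pair passed by rho, where 5 pairs had an unadjusted exact permutation p under 0.05. The libraries farthest from the median of the first gene were PBS replicate 9 with miR replicate 1 or 3. Without them, r over the remaining 5 libraries was 0.86 for Fos with Junb and with Egr1, and 0.81 for Fos with Dusp1. It was 0.73 for Egr1 and Dusp1, 0.59 for Junb and Dusp1 and 0.58 for Junb and Egr1. These 4 genes were not alone in this. Without PBS replicate 9 and miR replicate 1, r with Fos went from 0.25 to 0.94 for Fosb and from -0.03 to 0.91 for Npas4. For Egr2 and Arc it was then 0.06 and -0.03. Which genes followed Fos in the low set thus depended on those libraries. Nr4a1 (r = -0.58 with Fos, exact permutation p = 0.188, n = 7, adjusted 0.402) gave no call within the low set, which does not show that it was unrelated to Fos. Its r with Fos changed sign, to 0.37, without PBS replicate 9 and miR replicate 1.

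Homer1 (chromosome 13) has 3 rows. NM_147176 (94074450 to 94174917) and NM_152134 (94077989 to 94174917) encode long proteins of 366 and 370 codons, and NM_011982 (94074450 to 94126785) ends far upstream of them and encodes 186 codons. The short form, known as Homer1a, lacks the coiled coil, is the form induced by activity in neurons, and uncouples the scaffold built by the long forms. Of its 5713 exonic bases, 4687 are its own and 18.0% are shared with the long rows, whereas NM_147176 shares 98.8% of its bases. The short row measured 4.29, 3.66, 3.96, 4.18, 4.99 and 3.81 RPKM in miR, against 4.46, 3.49, 3.44, 3.55, 3.87 and 2.74 RPKM in PBS. NM_147176 measured 5.34, 4.92, 5.10, 5.14, 6.05 and 5.16 RPKM in miR, against 5.64, 4.53, 4.34, 5.01, 4.82 and 4.49 RPKM in PBS. NM_152134 lay between 4.76 and 5.92 RPKM in miR and between 4.22 and 5.60 RPKM in PBS. No row peaked in the 5 libraries with high Fos. The ratio of short to long (NM_147176) was 0.609 to 0.772 in those 5 libraries and 0.775 to 0.826 in the other 7, so the 5 lowest ratios were those of the libraries with high Fos, a pattern picked after its values were seen and with no test. As a row by itself, the short form had a slope on Fos of -0.06 ± 0.03 (limma adjusted p = 0.471).

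**Figure D3:**
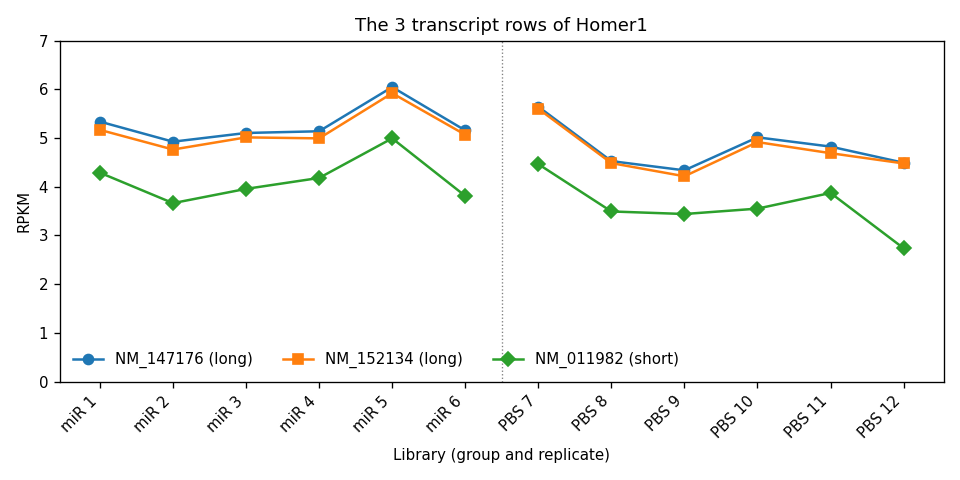
RPKM of the 3 transcript rows of Homer1 in the 12 libraries, miR on the left and PBS on the right. The short row lies below both long rows in each library and is lowest, at 2.74 RPKM, in PBS replicate 12.

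Between the groups the 10 genes overlapped throughout. Fos averaged 21.4 ± 23.96 RPKM in miR, against 20.8 ± 21.1 RPKM in PBS (SD over 6 libraries each), which differ by -0.05 ± 0.80 (SE) on the log2 scale (limma adjusted p = 0.978). Egr1 averaged 19.2 ± 17.4 RPKM in miR, against 19.1 ± 16.4 RPKM in PBS, and Dusp1 8.66 ± 4.55 RPKM in miR, against 8.18 ± 3.99 RPKM in PBS. The widest group difference was that of Npas4, with 3.46 ± 4.02 RPKM in miR, against 7.19 ± 7.92 RPKM in PBS, or -0.78 ± 0.79 (SE) on the log2 scale (limma adjusted p = 0.576). With each library left out that difference ran from -1.18 to -0.33, the value nearest 0 without PBS replicate 8, and with the mean log2 level of 6 nuclear-retained RNAs as a covariate it was 0.57 (limma adjusted p = 0.9999). The difference of Arc ran from -0.47 to -0.0106 with each library left out. The smallest p was that of Homer1, with 5.28 ± 0.396 RPKM in miR, against 4.81 ± 0.478 RPKM in PBS, or 0.13 ± 0.07 (SE) on the log2 scale (limma adjusted p = 0.295). None of the 9 tested genes passed in limma, and none had an unadjusted p under 0.05. Of all 13273 genes 0.0% passed, with 2687 genes, or 20.2%, at an unadjusted p under 0.05, and 0.482% had groups that did not overlap, against none of the 10. Without PBS replicate 7, 909 genes passed in limma, and without PBS replicate 11, 429, but in neither case any of the 9 tested, which leave out Egr2. With standard errors of 0.31 to 0.80 for the 8 other tested genes, only large group differences could have been detected.

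The relation of Npas4 to Fos was examined after its values were seen. The ratio of Npas4 to Fos was 0.163, 0.168, 0.193, 0.131, 0.101 and 0.160 in miR replicates 1 to 6 and 0.117, 0.354, 0.733, 0.374, 0.114 and 0.381 in PBS replicates 7 to 12. PBS replicates 8, 9, 10 and 12 were above all miR libraries, while PBS replicates 7 and 11 lay within the miR range. These are the 4 libraries of high Meg3, and the part of that division in the ratio was not tested. Over the groups the mean ratio was 0.153 ± 0.032 in miR and 0.346 ± 0.227 in PBS (SD, n = 6 each), with a 2-sided exact permutation p = 0.0714 over 924 labelings. At equal Fos, Npas4 differed between miR and PBS by -0.74 ± 0.30 (SE) on the log2 scale (limma adjusted p = 0.208). With the mean log2 level of 6 nuclear-retained RNAs, Meg3 among them, as a covariate, the slope of Npas4 on Fos was 0.87 (limma adjusted p = 4.60e-08).

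**Figure D4:**
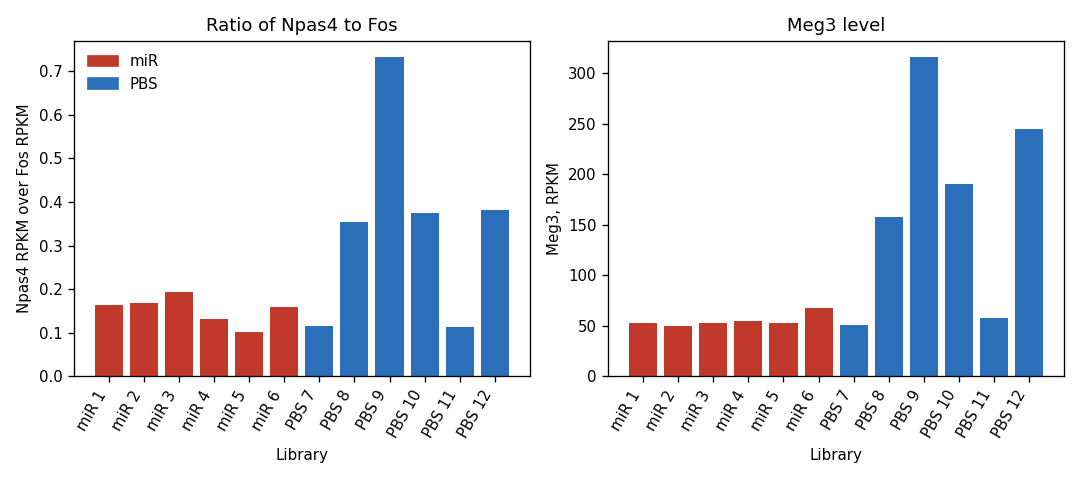
Left, the ratio of Npas4 RPKM to Fos RPKM in each library; right, the level of Meg3 in RPKM in the same libraries (red miR, blue PBS). The 4 highest bars of both plots belong to PBS replicates 8, 9, 10 and 12.

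Other genes of the response were read from lists. Over all 13272 genes, 1461 had a slope on Fos with an unadjusted p under 0.05, or about 11% of them, 805 positive and 656 negative, and the counts at that level in the lists stand against this share. Of 24 further immediate early transcription factors and regulators, 20 were tested and 3 rose with Fos past the threshold, and none fell. At an unadjusted p under 0.05 the list held 5 positive and 3 negative slopes. Btg2, an antiproliferative cofactor induced early by stimuli, divided the libraries in the same way. It measured 3.07, 25.7, 5.69, 4.04, 3.85 and 21.6 RPKM in miR, against 4.39, 24.3, 2.76, 11.7, 4.44 and 15.6 RPKM in PBS. Its slope was 0.73 ± 0.03 (limma adjusted p = 5.63e-09). Ier2 (1.10 to 2.50 RPKM in miR, against 1.27 to 2.87 RPKM in PBS) and the factor gene Klf4 (1.13 to 2.55 RPKM in miR, against 1.13 to 2.90 RPKM in PBS) had slopes of 0.21 ± 0.03 and 0.22 ± 0.03, with adjusted p = 0.011 and 0.0151 in limma. Both calls were lost without miR replicate 2, miR replicate 6 or PBS replicate 8, at adjusted p-values from 0.0572 to 0.0883 and slopes of 0.20 to 0.22. The median slope of the list was 0.03, against 0.00298 over all tested genes. Jun, the AP-1 partner of Fos, named here after its values were seen, measured 14.8 ± 1.08 RPKM in miR, against 14.7 ± 2.15 RPKM in PBS, with a slope of 0.0037 ± 0.0286 and an adjusted p of 0.973. Without the libraries farthest from the median Fos its slope was -0.0659. Jund, another AP-1 partner and also named after its values were seen, measured 35.4, 15.7, 39.4, 27.9, 28.7 and 13.1 RPKM in miR, against 35.8, 23.5, 36.6, 17.96, 30.3 and 24.7 RPKM in PBS. The 5 libraries with high Fos lay below the other 7. Its slope was -0.26 ± 0.05 (limma adjusted p = 0.0788), and it passed without miR replicate 3 (adjusted p = 0.0257 in limma). Nr4a2 and Nr4a3, the relatives of Nr4a1, had slopes of -0.17 ± 0.06 and -0.10 ± 0.04, with adjusted p = 0.353 and 0.358 in limma. Egr3 and Egr4, relatives of Egr1 and Egr2, lay below the level for testing. Egr4 measured 0.629 to 2.29 RPKM in the 5 libraries with high Fos and 0.365 to 0.643 RPKM in the other 7. Egr3 measured 0.429 to 1.53 RPKM in the 5 and 0.308 to 1.05 RPKM in the 7.

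Of 30 activity-induced signalling and effector genes, 26 were tested and none passed in either direction, with an unadjusted p under 0.05 in 5 with a positive and 1 with a negative slope. The smallest p belonged to the kinase gene Sik1 and the small GTPase gene Gem. Sik1 measured 4.32 to 8.99 RPKM in miR, against 4.20 to 6.51 RPKM in PBS, with a slope of 0.15 ± 0.03, and Gem 1.44 to 4.34 RPKM in miR, against 1.33 to 2.47 RPKM in PBS, with a slope of 0.21 ± 0.05. Both had an adjusted p of 0.136 in limma. Both were highest in miR replicates 2 and 6, and with Nr4a1 in place of Fos they passed (adjusted p = 0.0146 for Sik1 and 0.00743 for Gem). Of 26 upstream kinases and factors none passed, with 1 positive and 5 negative slopes at an unadjusted p under 0.05. Elk1 and Cacna1c had the smallest p, at slopes of -0.06 ± 0.02 and -0.08 ± 0.02 and adjusted p = 0.296 and 0.2997 in limma. Elk1 encodes a partner of serum response factor and Cacna1c a calcium channel subunit. Of 9 partners of Homer proteins none passed, with 4 negative slopes at an unadjusted p under 0.05, the smallest p in the scaffold genes Shank3 (-0.12 ± 0.04, adjusted p = 0.296) and Shank2 (-0.05 ± 0.02, adjusted p = 0.348).

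Among the genes whose pattern was most like the mean z-score of the 10 genes over the 12 libraries were Btg2 at r = 0.99, then Slc35f2 (0.92), Slc25a25 (0.90), Ppif (0.89), Ier2 (0.89), Klf4 (0.89), Clp1 (0.89), Ppp1r15a (0.88) and Gstt2 (0.88). These r are descriptions over libraries that fall into 2 sets. Those other than Btg2, Ier2 and Klf4 ranged at most 1.58-fold. Ppif measured 10.4 to 12.5 RPKM in miR, against 9.86 to 14.04 RPKM in PBS, with a slope on Fos of 0.09 ± 0.02 (limma adjusted p = 0.0580).

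The remaining gene that rose with Fos was Rrad, which encodes a GTPase that restrains calcium channels, at 2.86 to 5.24 RPKM in miR, against 2.77 to 8.64 RPKM in PBS and a slope of 0.24 ± 0.04 (adjusted p = 0.0186 in limma). Its call was lost without miR replicate 2, miR replicate 6, PBS replicate 8, PBS replicate 9 or PBS replicate 12, at adjusted p-values from 0.0532 to 0.0994. Another 11 genes fell with Fos, and in all 11 the 5 libraries with high Fos lay below the other 7. These genes were chosen by their slope over the same libraries, so this separation is not separate evidence. Scand1 measured 13.0, 2.52, 15.3, 7.60, 11.2 and 2.35 RPKM in miR, against 14.1, 3.42, 15.0, 2.61, 11.3 and 5.38 RPKM in PBS, a slope of -0.56 ± 0.08 (limma adjusted p = 0.0121). The others of smallest p were 9430041J12Rik, 0610039K10Rik, Mir5133, 2310039H08Rik and Zfp771, with slopes of -0.44, -0.29, -0.52, -0.19 and -0.33 and adjusted p-values in limma from 0.00542 to 0.0178. Their transcripts were short and rich in G and C: the 11 had a median length of 951 bases and a median GC content of 58.5%, against 2865 bases and 50.6% over all tested genes. The 9 tested immediate early genes had medians of 3036 bases and 56.0%. The count of lower genes was 1 without miR replicate 2, 3 without miR replicate 6 or PBS replicate 9, 6 without miR replicate 1 and 21 without miR replicate 3.

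**Figure D5:**
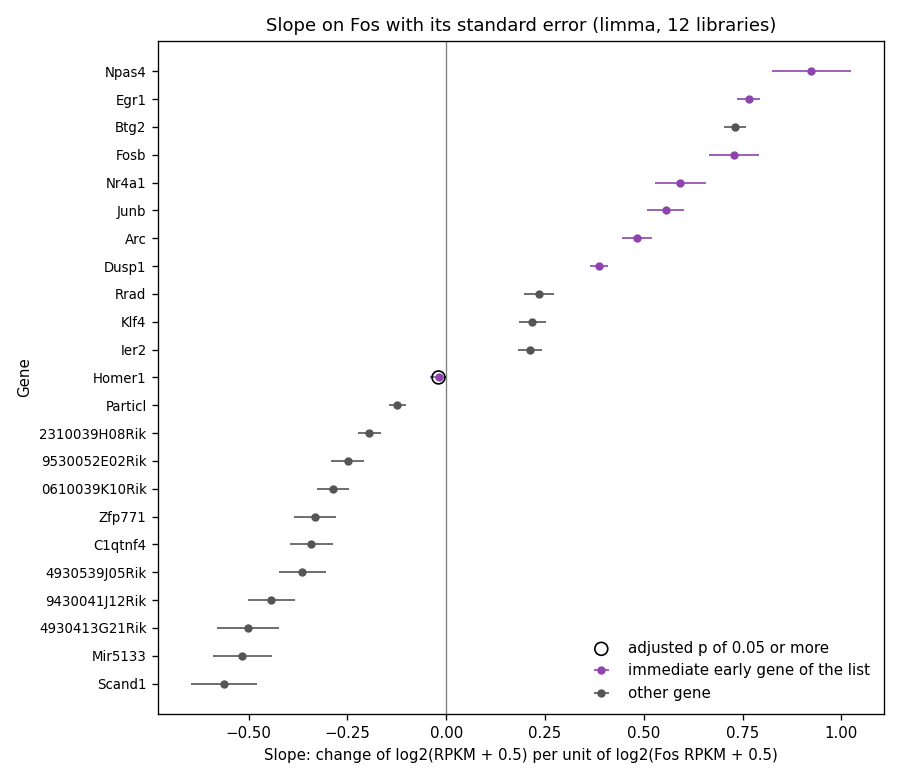
Slope on Fos of the tested immediate early genes of the list and of the other genes past the threshold, with its standard error, from limma over 12 libraries; purple marks the listed immediate early genes and rings mark genes with an adjusted p of 0.05 or more. The 7 listed genes that rose lie between 0.39 and 0.92, and Homer1 lies at -0.02.

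Markers of the nucleus and of other tissue were read beside the covariation. All 7 thalamic genes had negative slopes, 6 with an unadjusted p under 0.05 (about 11% of all tested genes) and none past the threshold, and a median slope of -0.15. They summed to 187 to 497 RPKM in miR, against 217 to 369 RPKM in PBS, or 187 to 369 RPKM in the 5 libraries with high Fos and 282 to 497 RPKM in the other 7. Tcf7l2, the factor that marks thalamic neurons, had a slope of -0.48 ± 0.14 (limma adjusted p = 0.268). Of the 8 genes of the nucleus itself, Oxt (-0.22 ± 0.07, adjusted p = 0.337) and Otp (-0.18 ± 0.06, adjusted p = 0.296) had an unadjusted p under 0.05, and Avp, Crh and Sim1 had slopes of -0.07 ± 0.10, 0.07 ± 0.08 and -0.01 ± 0.05. Of the lists of endothelium, mural cells, astrocytes, microglia, oligodendrocytes, choroid plexus with ependyma, neurons, blood and other hypothalamic nuclei, no gene passed. All 8 oligodendrocyte genes also had negative slopes, with a median of -0.037 and 0 at an unadjusted p under 0.05. At that level endothelium, neurons and choroid plexus with ependyma each held 1 negative slope. Astrocytes and other hypothalamic nuclei each held 1 positive slope. Microglial markers summed to 95.4 to 114 RPKM in miR, against 85.5 to 110 RPKM in PBS, and endothelial markers to 26.5 to 36.1 RPKM in miR, against 30.2 to 42.7 RPKM in PBS. No marker of any list was at 0 in all libraries. The part of the thalamic markers and of the 11 lower genes in the covariation was not tested.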

How the data were processed

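Poly-A libraries made with the TruSeq Stranded mRNA kit from 250 ng of RNA were sequenced as single-end reads on 2 lanes, per the labels' protocols. The authors deposited RPKM values of 30399 RefSeq transcript rows, 1 column per animal. The submitters' processing notes name build mm9 and edgeR without its role. The sources used here give no aligner, counter or strand setting.

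Of 913 rows without a symbol, 868 were named by accession through RefSeq. Depth came from the value steps of intronless olfactory receptor rows, with all low values within 2% of sums of the 2 steps, a weak check because many of these values also set the steps. Reads per gene were estimated with GENCODE M21 transcript lengths. RPKM were analysed as log2(RPKM + 0.5), which understates changes of low genes. Genes averaging 1 RPKM or more (13273) were tested with limma 3.58.1 in R 4.3.3 (variance trend, 2-sided, Benjamini-Hochberg) for miR against PBS and for the slope on Fos with a group term. Pairs were tested by permutation, over 5040 exact permutations in 7 libraries. Scripts were tested on simulated data; Python 3.11.15, pandas 2.3.3 and matplotlib 3.10.9 were used.

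Genes, lists and tests were chosen with earlier results of these data known. Named are all members, list genes past the threshold or else the 2 of smallest p, the 6 others of smallest p in each direction, and the 10 most alike, of which 1 gene is not reported here. Jun, Jund, Egr3, Egr4, Nr4a2, Nr4a3, Meg3 and the tissue markers, and the ratios to Fos and between Homer1 rows, were added after their values were seen. Alternatives were other pseudocounts, filters, scalings, no variance trend, mean over rows, a nuclear RNA covariate, Egr1 or Nr4a1 for Fos, no group term and each library left out; chosen after seeing the data were transcript rows, Fos as covariate, the 7 libraries and the 2 farthest left out. No other row overlaps a member. P-values measure the spread between animals, whose litters are not known.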

Additional observations from a re-analysis of the deposited data

Results flagged for a closer look

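Homer1 in miR replicate 5 stood apart from the other 5 miR libraries in both long rows, at 6.05 RPKM in NM_147176 and 5.92 RPKM in NM_152134, against 4.92 to 5.34 RPKM and 4.76 to 5.17 RPKM in the other miR libraries. The gap to the nearest library, divided by the range of the group, exceeded Dixon's critical value for 6 samples. The rows share most of their bases, so these are not 2 separate observations. Of 24 groups checked 2 were flagged, and chance flags about 1 in 20.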

How the results depend on the processing

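Of the 9 genes tested between miR and PBS (8 at a mean of at least 5 RPKM, and 10 with no filter, which adds Egr2) none was called under any alternative run. Over all genes that count was 0 to 909 with each library left out (909 when PBS replicate 7 was omitted, 429 for PBS replicate 11 and 1 for miR replicate 3) and 0 otherwise. With the mean log2 level of nuclear-retained RNAs as a covariate the difference, on the log2 scale, reversed to 0.37 in Fos, 0.52 in Fosb, 0.16 in Arc, 0.48 in Nr4a1, 0.57 in Npas4 and -0.00454 in Homer1, none past the threshold, and the cause was not tested. With each library left out it ran from -0.50 to 0.38 in Fos, -0.58 to 0.15 in Fosb, -0.63 to 0.0045 in Junb, -0.31 to 0.37 in Egr1, -0.50 to 0.13 in Nr4a1 and -0.13 to 0.25 in Dusp1. The count of genes with a called slope on Fos, 22, was 13 at a mean of at least 5 RPKM, where fewer genes were tested, 6 without the 2 libraries farthest from the median Fos, and 9 to 32 with each library left out (9 when miR replicate 2 was omitted, 11 for miR replicate 6 and 13 for PBS replicate 9). The 7 called members stayed at 7 with each library left out and numbered 5 without the 2 farthest. With Nr4a1 in place of Fos, Junb missed the threshold (adjusted p = 0.0628 in limma). The 36 called pairs were 6 in the 7 libraries of low Fos, where fewer samples were used, and 36 to 40 with each library left out (40 without PBS replicate 9, 4 of them pairs with Homer1). The slope of Jun on Fos ran from -0.0336 to 0.022 with each library left out and was -0.0659 without the 2 farthest, and that of Sim1 ran from -0.0377 to 0.0197 and was 0.0251 on Nr4a1. No paired analysis was possible because the replicate numbers, 1 to 6 in miR and 7 to 12 in PBS, are not shared. The few reads of Egr2 limit its precision.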
